A study of Homo sapiens with 18 samples.

Results

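LNCaP cells, an androgen-responsive human prostate cancer line, were compared after exposure to medium conditioned by macrophages of opposite polarisation. The comparison used the 3 libraries labelled M1 conditioned medium, without added solvent or inhibitor, and the 3 libraries labelled M2 conditioned medium, 6 of the 18 libraries of the series, chosen by their labels. Each gene was represented by the RefSeq transcript with the most counts over all libraries. The study asked how secreted factors of pro-inflammatory (M1) and immunosuppressive (M2) macrophages act on these tumour cells.

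All groups used here were wild-type LNCaP cells, pre-incubated in RPMI medium with little serum and sampled after 48 h. The macrophages came from THP-1, a monocytic leukaemia line, so both media derive from 1 cell line and not from primary macrophages, and the tumour cells are 1 line. Conditioned medium was diluted 1:4 in RPMI with 10% heat-inactivated serum. M0 medium (3 libraries) came from THP-1 macrophages that were not polarised, and the control (3 libraries) received the same RPMI and serum with no conditioned medium. The other libraries had M1 medium with DMSO (3) or M1 medium with the inhibitor IKK16 at 0.7 µmol/l (3). They entered the choice of transcript, the filter and the shared estimate of the spread. Those with DMSO also replaced the M1 libraries in 1 alternative setting. The labels name neither the agents used for polarisation nor whether replicates were separate cultures. Each p-value therefore rests on the spread among these libraries alone, part or all of which could be technical. Gene counts in the 6 libraries summed to between 24598456.5 and 31958443.

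M1 macrophages are the form made by interferon gamma and bacterial products, and they secrete cytokines such as TNF and interleukin 1. M2 macrophages are the form made by interleukin 4 or 13 and are associated with tissue repair. In a cell that receives them, TNF and interleukin 1 release NF-kB from its inhibitor IκB. Interferons act through JAK kinases and STAT factors, and interleukin 4 through STAT6. In luminal prostate cells androgens drive secretory genes such as KLK3, which encodes prostate-specific antigen.

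The promoters of 6 genes are shown because each stands for 1 of the groups that differed between the media. Each sequence is the 250 bases before the start that the RefSeq promoter table uses, 5′ to 3′ on the gene's strand, from RefSeq (GRCh38.p14), and capitals mark every match, on either strand, of 6 motifs. These are a kB element (GGG and TTCC with any 3 bases between), the core of the interferon-stimulated element (GAAA and GAAA with any 2 bases between), a STAT element (TTCNNNGAA), the CCAAT box, the cell cycle homology region (TTTGAA) and an androgen response core (AGAACA). TNFAIP3, an NF-kB feedback inhibitor (chr6:137867009-137867258, plus strand), holds 2 kB elements, at -67 to -58 and -55 to -46 from that start, which lies inside the gene span given below and not at its first base. IFIT3, an interferon-induced antiviral protein (chr10:89327747-89327996, plus strand), holds the interferon-stimulated core at -156 to -147 and -122 to -113. IRF1, a transcription factor induced by interferons (chr5:132490774-132491023, minus strand), has a STAT element at -124 to -116. CFB, complement factor B (chr6:31945845-31946094, plus strand), has an interferon-stimulated core at -140 to -131 and a STAT element at -92 to -84. CCNB2, cyclin B2 (chr15:59104896-59105145, plus strand), has 4 CCAAT boxes and a cell cycle homology region at -29 to -24. KLK3 (chr19:50854665-50854914, plus strand) has an androgen response core at -170 to -165. The same core also stands in CFB at -43 to -38 and in CCNB2 at -81 to -76. IFIT3 holds a cell cycle homology region at -205 to -200, and IRF1 holds CCAAT boxes at -97 to -93 and -244 to -240.
TNFAIP3: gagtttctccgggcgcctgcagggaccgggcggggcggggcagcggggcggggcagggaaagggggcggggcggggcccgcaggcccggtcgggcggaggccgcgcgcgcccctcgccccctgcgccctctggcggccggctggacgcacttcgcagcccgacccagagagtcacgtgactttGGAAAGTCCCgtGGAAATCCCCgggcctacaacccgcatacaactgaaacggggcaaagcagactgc
IFIT3: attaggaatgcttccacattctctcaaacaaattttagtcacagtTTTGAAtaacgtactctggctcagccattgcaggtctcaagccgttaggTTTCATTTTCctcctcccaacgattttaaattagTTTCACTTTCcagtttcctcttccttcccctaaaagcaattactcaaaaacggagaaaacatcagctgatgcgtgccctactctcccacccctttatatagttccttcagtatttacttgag
IRF1: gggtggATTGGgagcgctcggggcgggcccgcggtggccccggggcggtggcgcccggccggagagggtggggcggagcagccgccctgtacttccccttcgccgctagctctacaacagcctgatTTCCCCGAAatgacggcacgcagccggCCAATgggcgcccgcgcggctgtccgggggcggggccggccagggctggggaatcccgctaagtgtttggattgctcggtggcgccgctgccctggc
CFB: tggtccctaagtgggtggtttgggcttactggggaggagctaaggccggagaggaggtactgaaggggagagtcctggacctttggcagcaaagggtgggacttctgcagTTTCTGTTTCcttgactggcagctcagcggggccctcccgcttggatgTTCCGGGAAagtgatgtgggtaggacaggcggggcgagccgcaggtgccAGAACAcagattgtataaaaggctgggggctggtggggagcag
CCNB2: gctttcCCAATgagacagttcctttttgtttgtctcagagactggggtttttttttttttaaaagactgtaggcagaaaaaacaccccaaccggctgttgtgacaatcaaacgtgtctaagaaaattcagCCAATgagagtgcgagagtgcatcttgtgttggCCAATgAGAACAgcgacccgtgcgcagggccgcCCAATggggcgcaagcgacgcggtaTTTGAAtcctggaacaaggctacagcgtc
KLK3: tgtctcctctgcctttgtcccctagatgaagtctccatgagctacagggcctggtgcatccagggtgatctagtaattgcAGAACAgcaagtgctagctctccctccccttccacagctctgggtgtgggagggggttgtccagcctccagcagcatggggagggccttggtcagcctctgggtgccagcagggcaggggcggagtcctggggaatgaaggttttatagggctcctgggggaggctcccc

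The same motifs were counted in all 27305 promoters of this length. The kB element stood in 5.61% of them, in 8 of 21 promoters (38.1%) of the NF-kB list and in 12 of 25 (48%) of the chemokine list. The interferon-stimulated core stood in 3.07% of all promoters and in 19 of 32 (59.4%) of the type I interferon list. The STAT element stood in 6.78% of all and in 6 of 17 (35.3%) of the interferon gamma list. The CCAAT box was found in 33.0% of all promoters and in 20 of 27 (74.1%) of the mitosis list, the cell cycle homology region in 13.6% and in 14 of 27 (51.9%). The CCAAT box was not particular to mitosis genes. It stood in 12 of 15 promoters (80%) of the class II list and 17 of 23 (73.9%) of the cholesterol list, but in 2 of 12 (16.7%) of the basal list. The cell cycle homology region stood in 5 of 15 (33.3%) of the class II list and in 1 of 29 (3.45%) of the DNA replication list. The androgen response core showed no such gap, at 12.4% of all promoters and 2 of 24 (8.33%) in the androgen-responsive list. Among the 13049 promoters of genes tested it stood in 8.18%. In those the kB element stood in 6.51%, the interferon-stimulated core in 2.41% and the STAT element in 5.62%. The CCAAT box stood in 34.8% of them and the cell cycle homology region in 9.0%. A match of letters is a description and not a bound site. No protein binding was measured here.

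The media gave very different cells. Of 17073 genes tested, 5776 (33.8%) were higher in M1 than in M2 medium and 5753 (33.7%) were lower, at an adjusted p under 0.05 (edgeR, Benjamini-Hochberg, two-sided). Together 67.5% of genes were called. At least 2-fold differences were fewer, 1783 higher (10.4%) and 1378 lower (8.07%). Differences of at least 8-fold were 461 higher and 90 lower. The 3 and 3 libraries did not overlap for 11872 genes (69.5%). The median log2 fold change over all genes was -0.003, so that of a list can be read against 0. Fold changes correlated weakly with transcript length across genes (Spearman 0.148 over 16236 genes, which are not independent replicates), and with that trend removed 5872 genes were higher and 5704 lower. In bulk RNA, a change in the number of cells of a kind and a change in RNA per cell cannot be told apart.

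**Figure D1:**
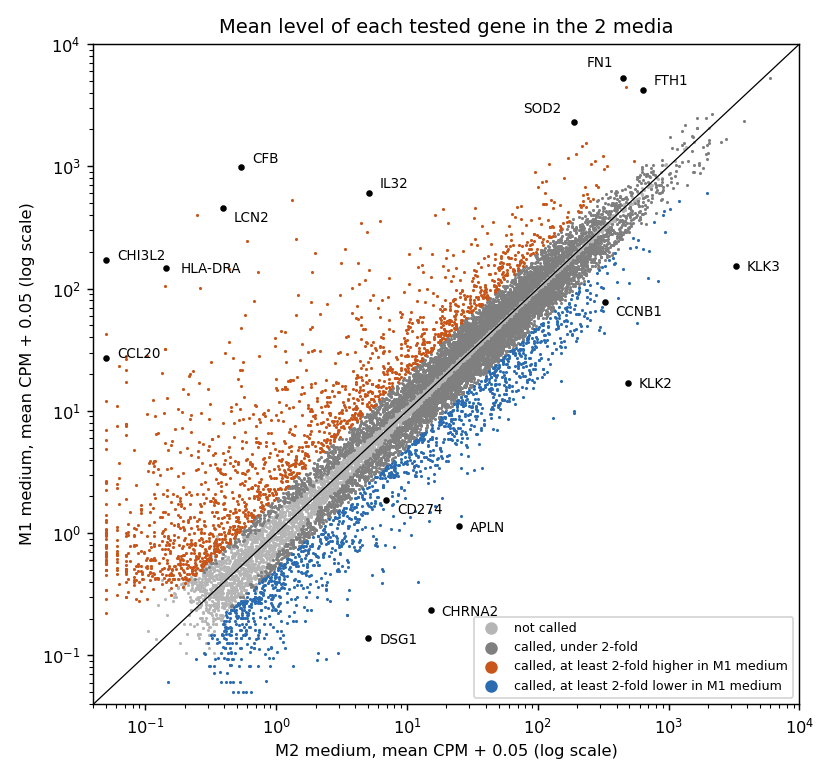
Mean CPM (counts scaled to library size) + 0.05 of each tested gene in M2 medium (horizontal) and M1 medium (vertical), both on log scales, with named genes as black points and the diagonal as the line of equal level. Orange points, at least 2-fold higher in M1 medium, number 1783 and reach farther from the diagonal than the 1378 blue points, at least 2-fold lower.

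Set against the control, M1 medium changed most genes and M2 medium few. These comparisons share the control libraries, so their values are given side by side. M1 medium differed from control in 64.9% of genes, M2 medium in 8.7% (911 higher, 575 lower), and only 30 genes (0.176%) differed by at least 2-fold in M2 medium. The M2 counts rest on single libraries. Leaving out control replicate 1 gave 99 higher and 63 lower genes. Leaving out M2 replicate 1 gave 86 and 79, M2 replicate 2 gave 232 and 119, and M2 replicate 3 gave 1559 and 1087. Fold changes of M2 medium against control also correlated with transcript length (Spearman -0.292 across genes). Ribosomal RNA, a sign of how well polyadenylated RNA was selected, was looked at as well. RNA28SN5, a 28S ribosomal RNA gene chosen after its values were seen, stood at 2007 ± 997 CPM in control, 799 ± 455 in M2 and 821 ± 301 in M1 medium (SD, n = 3). It was called in M2 medium against control (log2 fold change -1.33, edgeR adjusted p = 0.0195) and not between M1 and M2 medium (edgeR adjusted p = 0.927). Ribosomal RNA genes made up 8 of the 30 genes that differed by at least 2-fold in M2 medium. Their share among all genes tested is not given here. The part of ribosomal RNA in the other counts against control was not tested.

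M2 medium was also set against M0 medium, from macrophages that were not polarised. There edgeR called 18 genes lower with M2 medium (0.105%) and 0 higher, where an unadjusted p under 0.05 held for 583 lower and 345 higher genes. The 18 became 0 once M2 replicate 2 or M2 replicate 3 was dropped, 4 on dropping M0 replicate 2, 3 on dropping M0 replicate 3 and 35 on dropping M2 replicate 1, and 1 gene was called higher without M0 replicate 3 or M2 replicate 1.

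Epithelial markers were abundant in both media. Macrophage markers were mixed, with several at or near 0 counts and most of those tested higher in M1 medium. All 10 LNCaP and epithelial markers passed the filter on low counts, 3 being higher in M1 medium and 5 lower, beside 33.8% and 33.7% of all genes. The cadherin gene CDH1 stood at 988 ± 13.4 CPM in M1 and 627 ± 37.9 CPM in M2 medium, and the keratin gene KRT8 at 493 ± 19.8 and 344 ± 5.81 CPM. Of 27 macrophage markers, 15 stayed below the filter. TYROBP, CYBB, FCGR3A and VSIG4 had 0 counts in all 6 libraries, PTPRC had 0 in M1 and 2 in M2 medium, and CD14 had 2 and 3. ITGAX, also below the filter, had 22 counts in M1 and 0 in M2 medium (edgeR adjusted p = 0.000304 without the filter). The summed level of the 27 markers was 269 to 297 CPM in M1 and 248 to 273 CPM in M2 medium. Most of it was CSF1R, the receptor for macrophage colony-stimulating factor, which stood at 223 CPM in the control as well, without any macrophage medium. Without CSF1R the sum was 80.7 to 96.1 CPM in M1 and 9.53 to 10.8 CPM in M2 medium. Of the 12 markers tested, 8 were higher in M1 medium and 3 lower, beside 33.8% and 33.7% of all genes. Markers near 0 outside M1 medium could pass the filter through M1 medium alone. For these a higher call was favoured in advance, so the 8 cannot be weighed against that share. LYZ and S100A8 were among the higher ones. ITGAM, an integrin chain of myeloid cells, stood at 19.9 ± 1.45 against 0.167 ± 0.172 CPM, S100A9, a calcium-binding protein also made by epithelia, at 19.1 ± 4.11 against 0.166 ± 0.0502 CPM, and the lysosomal protein gene CD68 at 36.8 ± 3.03 against 4.82 ± 0.473 CPM. The 3 lower in M1 medium were CSF1R (log2 fold change -0.35), CORO1A (-0.63) and CD33 (-1.45). The CORO1A call was lost with DMSO-treated M1 libraries (-0.35, edgeR adjusted p = 0.114). The CD33 call was lost without M1 replicate 1 (edgeR adjusted p = 0.0534) or M1 replicate 3 (edgeR adjusted p = 0.0677).

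The NF-kB system differed almost wholly in 1 direction. Of its 24 genes, all tested, 23 were higher in M1 than in M2 medium and none was lower by edgeR, DESeq2 or an unadjusted p under 0.05, beside 33.8% of all genes higher. Their median log2 fold change was 1.71. The 1 member not called was CHUK, the kinase IKK-alpha, at 32.0 ± 0.954 and 30.4 ± 1.23 CPM (edgeR adjusted p = 0.525). TNFAIP3 (A20; chromosome 6, 137866349 to 137883312), whose promoter with its pair of kB elements is shown above, stood at 72.7, 76.5 and 74.6 CPM in the M1 libraries and at 2.06, 2.76 and 2.33 CPM in the M2 libraries. Every M1 library lay above every M2 library, a 31.2-fold difference (log2 4.96 ± 0.10 SE, edgeR adjusted p = 5.78e-22). NFKB1, the p105/p50 subunit, was at 410 ± 15.3 against 63.3 ± 2.40 CPM. BIRC3, an inhibitor of apoptosis and signal adaptor, was at 356 ± 22.4 against 6.14 ± 0.0817 CPM, the largest fold of the list (57.8-fold). NFKBIZ, a nuclear IκB protein, and the adaptor TRAF1 differed by 4.70 and 5.12 on the log2 scale. The list's median against control was 1.8 in M1 medium and 0.04 in M2 medium.

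Ligands that carry inflammation outward followed. Of 35 chemokines and cytokines, 23 passed the filter, of which 18 were higher in M1 medium, beside 33.8% of all genes. None was lower by edgeR, DESeq2 or an unadjusted p under 0.05. Of the 23, 5 had 0 counts in M2 medium. The filter used all 6 groups, so members near 0 outside M1 medium could pass through M1 medium alone. For these a higher call was favoured in advance. Without M2 replicate 3, 1 was lower, IL11, which stood at -0.83 with all libraries (edgeR adjusted p = 0.0725). IL6 had 1 count in the M1 and 0 in the M2 libraries, and IL1B 10 and 0, so both stayed below the filter. CCL20, which attracts dendritic cells and lymphocytes through CCR6, was at 29.5, 26.6 and 24.5 CPM in M1 medium and had 0 counts in all M2 libraries. That is at least 261-fold higher, taking 3 counts per library as the floor. IL32, a pro-inflammatory cytokine, stood at 586, 629 and 586 CPM in M1 medium and at 6.4, 4.62 and 4.19 CPM in M2 medium, 117-fold apart. TNF was at 9.48 ± 0.72 against 0.0891 ± 0.0626 CPM (edgeR adjusted p = 2.44e-16), and the membrane-bound chemokine gene CX3CL1 at 1.67 ± 0.579 CPM against 0, at least 16.2-fold higher. GDF15, a stress-induced cytokine and the most abundant called member, differed less: 2066, 2073 and 2412 CPM against 1501, 1204 and 1294 CPM, 1.64-fold. The constitutive members CXCL16 (61.8 ± 2.47 and 60.6 ± 2.03 CPM) and IL7 (4.23 ± 0.492 and 4.12 ± 0.721 CPM) were not called.

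**Figure D2:**
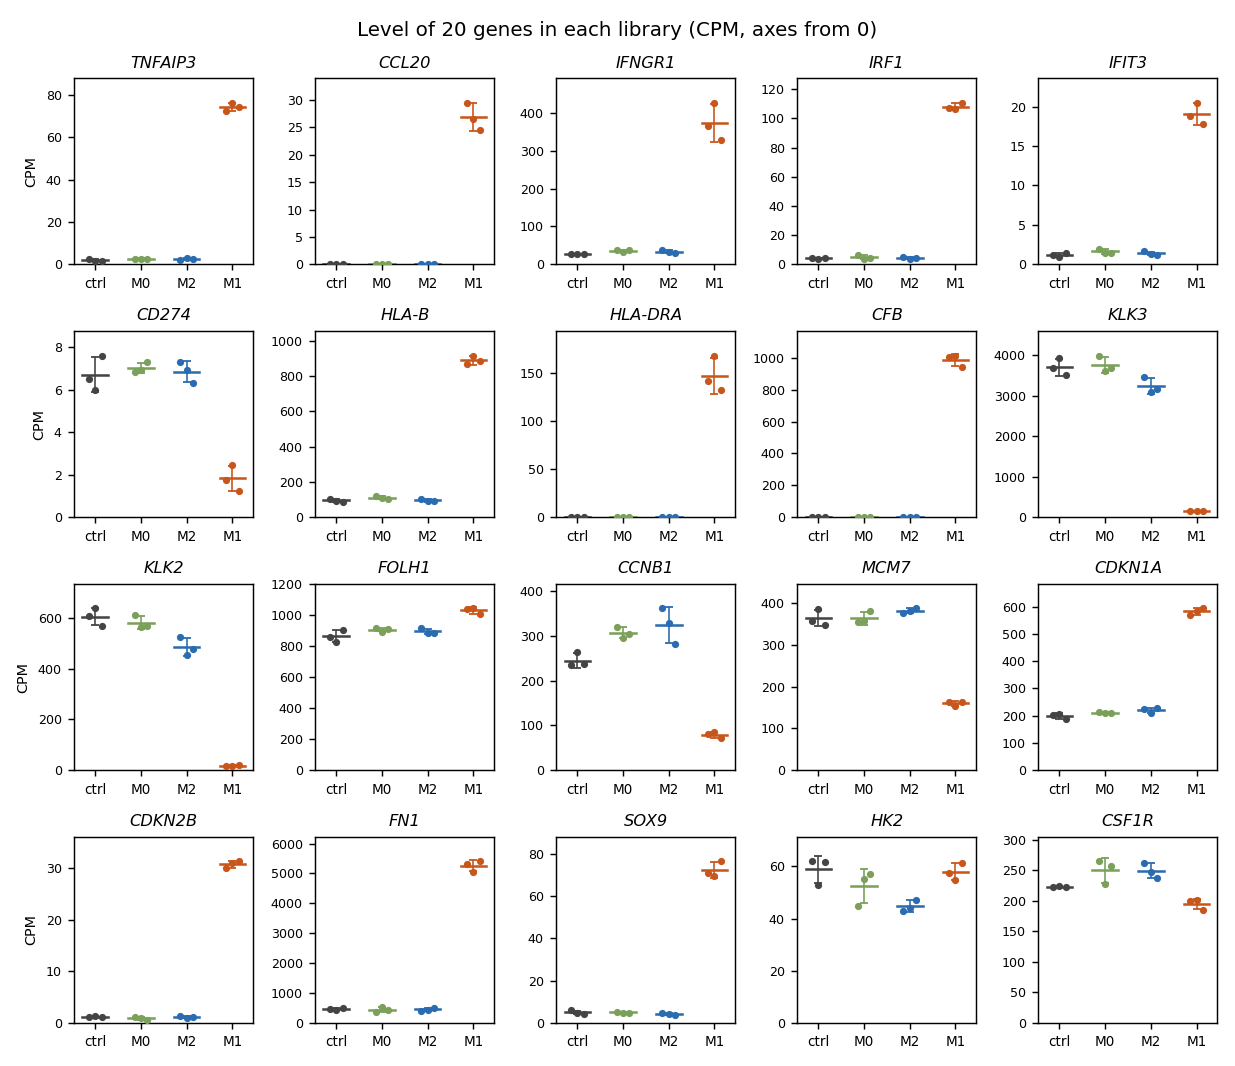
CPM of 20 genes in each of the 3 control, M0, M2 and M1 libraries, with each axis starting at 0, points as libraries, horizontal lines as means and bars as SD. For TNFAIP3, CCL20, IRF1, IFIT3, HLA-B, HLA-DRA, CFB, CDKN2B, FN1 and SOX9 the M1 libraries stand alone above the rest; for CD274, KLK3, KLK2, CCNB1 and MCM7 they stand alone below, and for HK2 the M2 libraries lie below the M1 libraries.

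Receptors changed in the same direction. Of 30 cytokine receptors 26 passed the filter, with 22 higher in M1 medium and 2 lower, beside 33.8% and 33.7% of all genes. Their median was 1.05. IFNGR1, the ligand-binding chain of the interferon gamma receptor, was at 367, 428 and 328 CPM in M1 medium and at 37.1, 32.1 and 29 CPM in M2 medium. The M1 libraries varied more among themselves than the M2 libraries did, but none came near the M2 range (11.4-fold, edgeR adjusted p = 3.91e-20). TNFRSF9, the costimulatory receptor 4-1BB, was at 12.8 ± 0.427 against 0.0954 ± 0.0962 CPM, TGFBR3, a co-receptor for TGF-beta, 4.66-fold higher, and LTBR, the lymphotoxin beta receptor, 1.55-fold higher. IL1R1, the signalling receptor of interleukin 1, was lower in M1 medium, with 20.5 ± 0.549 CPM there and 38.1 ± 4.01 CPM in M2 medium (-0.89 ± 0.09 SE on the log2 scale, edgeR adjusted p = 5.33e-09). Its partner IL1RAP was lower by a small step (-0.23, edgeR adjusted p = 0.0436), which DESeq2 did not call (adjusted p = 0.0578) and which edgeR lost without M1 replicate 2 or 3 or M2 replicate 1 or 2 (adjusted p from 0.0676 to 0.156).

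Among 23 JAK, STAT and SOCS genes tested, 15 were higher and 3 lower, beside 33.8% and 33.7% of all genes. STAT3, which carries interleukin 6 type signals, stood at 671 ± 19.5 against 230 ± 8.48 CPM. The feedback inhibitor gene SOCS3 was at 2.33, 1.94 and 3.00 CPM in M1 and 0.0312, 0.0321 and 0.0396 CPM in M2 medium. Its relative SOCS2 moved the other way, with 6.11 ± 0.777 CPM in M1 and 15.4 ± 0.923 CPM in M2 medium (-1.33 on the log2 scale, edgeR adjusted p = 4.97e-11). The kinase gene PIM1 (-0.90) and STAT5B (-0.29) were also lower in M1 medium.

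Genes by which epithelial cells answer interleukin 4 and 13 were examined as a possible trace of M2 polarisation. Of 20 such genes, 11 did not pass the filter, among them POSTN, CLCA1 and HSD3B2, which had 0 counts in both media, and CCL26, with 10 counts in the M1 and 1 in the M2 libraries. Of the 9 tested, 5 were higher in M1 and 2 higher in M2 medium, beside 33.8% and 33.7% of all genes, too few to set apart from that share. The 5 were FCGBP, a mucus protein (161 ± 27.1 against 4.18 ± 1.68 CPM), DPP4 (1.71 on the log2 scale), SLC26A4 (1.91), TGM2 (1.86) and CDH26 (0.28). Those higher in M2 than in M1 medium were TFF3, a mucosal peptide (8.28 ± 1.61 against 3.06 ± 0.414 CPM), and the lipoxygenase gene ALOX15 (166 ± 1.05 against 133 ± 4.92 CPM). Neither was above control in M2 medium: TFF3 stood 0.29 from it (edgeR adjusted p = 0.260), and ALOX15 was below it (-0.15, edgeR adjusted p = 0.0386). Named outside the rule on size, the receptor chains IL4R and IL13RA1 were higher in M1 medium by 1.55 and 1.31 on the log2 scale, and STAT6 was low in both, at 1.51 ± 0.495 and 1.17 ± 0.237 CPM.

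Interferon-induced genes were higher in M1 medium. Of 39 type I interferon response genes, all tested, 32 were higher and 2 lower, beside 33.8% and 33.7% of all genes. Their median log2 fold change was 1.96. IFIT3, whose promoter carries the interferon-stimulated core in 2 places, was at 18.8, 20.5 and 17.8 CPM in M1 and at 1.62, 1.35 and 1.19 CPM in M2 medium. The groups lay far apart (13.5-fold, edgeR adjusted p = 9.63e-18). OAS2, an antiviral synthetase, was at 4.77 ± 0.335 against 0.0998 ± 0.0494 CPM, LGALS3BP, a secreted glycoprotein, at 233 ± 8.74 against 31.0 ± 1.67 CPM and the ubiquitin ligase gene DTX3L at 114 ± 3.48 against 34.9 ± 3.07 CPM. The 2 members that were lower in M1 medium were USP18, which removes ISG15 and blocks interferon receptor signalling, and EPSTI1. USP18 stood at 7.13, 6.29 and 5.81 CPM against 13.5, 13.5 and 13.8 CPM, all M1 libraries below all M2 libraries (2.12-fold, edgeR adjusted p = 4.81e-09). EPSTI1 stood at 0.675 ± 0.0439 against 4.25 ± 0.257 CPM.

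The list of interferon gamma response genes had a larger median than the type I list. Of 28 genes, 23 passed the filter, 22 were higher and 1 lower, beside 33.8% and 33.7% of all genes. The median was 4.88 (4.68 with the 2 genes at 0 counts in M2 medium held at their lower bound). Genes near 0 outside M1 medium could pass the filter through M1 medium alone. IRF1 (chromosome 5, 132481609 to 132490773), named for its promoter, was at 107, 106 and 111 CPM against 4.97, 3.53 and 4.11 CPM, 25.6-fold apart. UBD, a ubiquitin-like protein, was at 103, 113 and 95.0 CPM in M1 medium, where no M2 library exceeded 0.128 CPM. GBP2, a GTPase of cell-autonomous defence, was at 209 ± 4.59 against 3.32 ± 0.920 CPM. IDO1, which degrades tryptophan, was at 5.73 ± 1.28 CPM against 0 counts, at least 55.7-fold higher. ICAM1, the leukocyte adhesion molecule, was at 22.0, 24.1 and 24.2 CPM in M1 medium and at 0, 0 and 0.0396 CPM in M2 medium.

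The exception was CD274 (chromosome 9, 5450542 to 5470554), which encodes the checkpoint ligand PD-L1 and is a known interferon gamma target. It was at 1.77, 2.45 and 1.24 CPM in M1 medium and at 7.28, 6.93 and 6.33 CPM in M2 medium. No library overlapped, and the gene was lower by 1.92 ± 0.18 (log2, SE) in M1 medium (edgeR adjusted p = 1.37e-09). M2 medium did not move it from control (0.03, edgeR adjusted p = 0.917), while M1 medium stood -1.89 from control.

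Antigen presentation genes also differed. All 21 tested genes of MHC class I and peptide loading, of 22 in the list, were higher in M1 medium, beside 33.8% of all genes. Their median was 1.95. HLA-B, a class I heavy chain, was at 870, 916 and 883 CPM against 105, 89.0 and 93.3 CPM. B2M, the class I light chain, was at 1510, 1720 and 1397 CPM against 251, 237 and 216 CPM, 6.57-fold. The immunoproteasome subunit genes PSMB8 and PSMB9 differed by 4.03 and 4.74 on the log2 scale, NLRC5, the class I transactivator, by 3.22, and the chaperone gene CALR by only 0.32. Of 18 class II genes, 13 were higher and 3 lower, beside 33.8% and 33.7% of all genes, with a median of 3.66. HLA-DRA (chromosome 6, 32439887 to 32445046) was at 142, 169 and 132 CPM in M1 medium, and no M2 library exceeded 0.158 CPM. The invariant chain gene CD74 was 74.9-fold higher (138 ± 2.87 against 1.84 ± 0.221 CPM) and the protease gene CTSS was at 28 ± 2.04 against 0.0532 ± 0.0669 CPM. CIITA, the master regulator of class II genes and named for that, differed by only 1.74-fold, at 24.5, 22.9 and 25.2 CPM against 13.1, 13.8 and 14.9 CPM. The lower members were the peptide editor chain HLA-DMB (-0.35) and the promoter-binding factors RFXAP (-0.43) and RFXANK (-0.29). The HLA-DMB call was lost without M1 replicate 1, M1 replicate 3 or M2 replicate 1 (edgeR adjusted p from 0.0714 to 0.137). HLA genes resemble each other, and how reads matching several of them were counted is not stated, so single HLA values are uncertain.

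Complement and acute phase genes had a median of 6.36, or 3.61 with the 3 genes at 0 counts in M2 medium held at their lower bound. On the first scale it is the largest list median, and on the second it lies below those of the interferon gamma (4.68) and class II (3.66) lists. Of 32 genes 24 passed the filter, 21 were higher in M1 medium and 1 lower, beside 33.8% and 33.7% of all genes. Here too genes near 0 outside M1 medium could pass the filter through M1 medium alone. CFB, the protease of the alternative pathway (chromosome 6, 31946095 to 31952084), stood at 1006, 1015 and 945 CPM in M1 medium and at 0.344, 0.641 and 0.475 CPM in M2 medium. The M1 libraries lay close together and far above the M2 libraries, and the difference was 10.98 ± 0.11 on the log2 scale (SE, edgeR adjusted p = 1.34e-27). LCN2, which binds bacterial iron carriers, was at 443, 485 and 439 CPM against 0.312, 0.321 and 0.396 CPM. PIGR, which carries antibodies across epithelia, was at 397 ± 4.53 against 0.198 ± 0.0712 CPM, SERPINA3, a protease inhibitor of the acute phase, at 532 ± 44.1 against 1.26 ± 0.288 CPM. SAA1, serum amyloid A, reached 42.4 ± 1.98 CPM from 0 counts, at least 412-fold higher, and has a near-identical copy, SAA2, so its value is uncertain. CD55, a shield against complement, was the lower member, at 2.55 ± 0.217 against 3.76 ± 0.648 CPM (edgeR adjusted p = 0.0145). That call was lost without M1 replicate 2, M2 replicate 1 or M2 replicate 2 (edgeR adjusted p from 0.0555 to 0.0621).

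The other 3 of the 10 largest fitted rises lay outside these lists. Fitted folds of genes at 0 counts in M2 medium depend on the prior count of the fit, so their place among the 10 does too: the lower bounds below are smaller than the folds of UBD (1096) and SERPINA3 (415), except for CHI3L2. CHI3L2, a chitinase-like secreted protein, was at 165, 185 and 164 CPM in M1 medium with 0 counts in M2 medium, at least 1665-fold higher. PI3, the protease inhibitor elafin, was at least 117-fold and LGALS9, the lectin galectin-9, at least 67.5-fold higher. LGALS9 has close copies in the genome, so its level is uncertain.

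**Figure D3:**
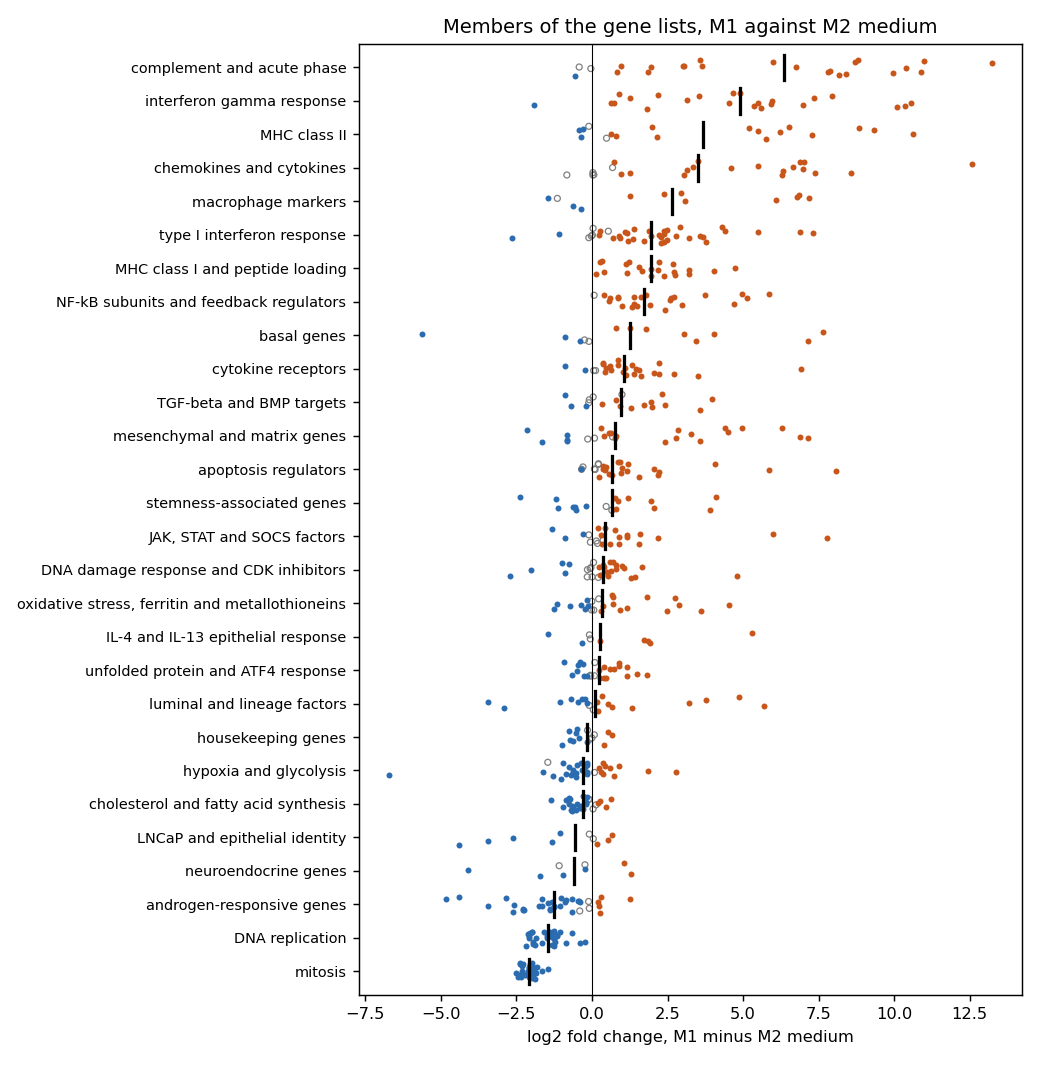
Log2 fold change (M1 minus M2 medium, horizontal) of the tested members of 28 gene lists, ordered by median (black bar), with called members filled (orange higher, blue lower) and others open. The complement and interferon gamma lists lie farthest right, at medians of 6.36 and 4.88 (3.61 and 4.68 with genes at 0 counts held at their bound, which places class II, at 3.66, above complement), and the mitosis and DNA replication lists farthest left, at -2.09 and -1.44. Values of genes with 0 counts in M2 medium depend on the prior count of the fit.

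Androgen-responsive genes were mostly lower in M1 medium. Of the 35 genes in this list, all tested, 27 were lower and 5 higher, beside 33.7% of all genes lower, with a median of -1.25. KLK3 (chromosome 19, 50854915 to 50860764) was at 154, 147 and 160 CPM against 3478, 3107 and 3170 CPM, 21.1-fold lower in M1 medium (log2 -4.40 ± 0.07 SE, edgeR adjusted p = 1.41e-23). The sister kallikrein KLK2 differed by 28.6-fold. The surface protease gene TMPRSS2 was 7.24-fold lower. KLK2 and KLK3 are similar in sequence, and reads they share may have been counted under either. Members higher in M1 medium included the metalloreductase genes STEAP2 (0.31) and STEAP4 (1.27), UGT2B15 (0.23), an enzyme that inactivates androgens and has near-identical relatives, and FOLH1 (0.20), which encodes prostate-specific membrane antigen. FOLH1 stood at 1042, 1044 and 1005 CPM against 914, 886 and 888 CPM, without overlap. The UGT2B15 call did not survive leaving out any of the 6 libraries (edgeR adjusted p from 0.0504 to 0.0975).

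M2 medium itself lay slightly below the control on these genes. The list's median against control was -1.44 in M1 and -0.18 in M2 medium, and in M2 medium 16 of the 35 genes were lower than control and 2 higher, beside 3.37% of all genes lower. Among the 16, NDRG1, a stress- and androgen-responsive gene, stood at -0.64, the transcription factor gene MAF, chosen after its values were seen, at -0.65, PMEPA1, an inhibitor of TGF-beta signalling, at -0.52 and SLC45A3, a prostate transporter gene, at -0.47. In M1 medium they stood lower still, at -1.66, -2.91, -1.41 and -3.10 from control. In M0 medium some of these genes lay below the control mean too: PMEPA1 stood at 140 ± 2.11 CPM in M0, 125 ± 13.7 in M2 and 179 ± 6.80 in control, and M2 differed from M0 medium in NDRG1 (-0.59, edgeR adjusted p = 0.0113) but was not called in PMEPA1 (-0.16, edgeR adjusted p = 0.703), MAF (-0.30, edgeR adjusted p = 0.199) or SLC45A3 (-0.18, edgeR adjusted p = 0.370). Leaving out control replicate 1 or M2 replicate 2 left 10 of the 16, and leaving out M2 replicate 1 left 9.

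Proliferation genes were all lower in M1 medium. Every one of the 34 DNA replication genes and 33 mitosis genes was tested and lower, none being higher by edgeR, DESeq2 or an unadjusted p under 0.05, and all 33 mitosis genes by at least 2-fold, beside 33.7% of all genes lower and 8.07% lower by 2-fold. The medians were -1.44 and -2.09. CCNB1, cyclin B1 (chromosome 5, 69167150 to 69178245), was at 80.1, 83.9 and 70.9 CPM in M1 medium and at 361, 328 and 282 CPM in M2 medium. CCNB2 was at 18.9, 16.9 and 15.9 CPM against 98.8, 98.0 and 84.4 CPM. No library of either gene overlapped, at 4.13-fold and 5.43-fold. MCM7, a subunit of the replicative helicase, was at 163, 153 and 163 CPM against 377, 382 and 388 CPM. The thymidine kinase gene TK1, the ribonucleotide reductase gene RRM2, the S phase factor gene E2F1 and CDC45 were lower by between 2.08 and 2.18 on the log2 scale, and the kinesin gene KIF20A by 2.52. The smallest difference was that of CCNE1, cyclin E1 (-0.22), named for being the smallest, whose call was lost without M1 replicate 2 (edgeR adjusted p = 0.0912) or M2 replicate 2 (edgeR adjusted p = 0.0638).

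Relative to control the proliferation lists had medians of -1.26 and -2.08 in M1 medium and 0.13 and 0.12 in M2 medium. In M2 medium 11 of 34 replication and 8 of 33 mitosis genes were higher than control, beside 5.34% of all genes higher, and none was lower. CCNB1 stood 0.40 above control (edgeR adjusted p = 0.00375) and CDK1, the kinase it activates, 0.32. M0 medium gave like levels, with CCNB1 at 307 ± 12.6 and CDK1 at 302 ± 7.19 CPM against 324 ± 40.1 and 316 ± 35.0 CPM in M2 medium, and neither was called between M2 and M0 medium (edgeR adjusted p = 0.996 for both). With control replicate 1 or M2 replicate 1 left out these counts were 0 and 2, and with M2 replicate 2 left out they were 2 and 3.

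Cell cycle inhibitors did not move as 1 group. Of 30 DNA damage response genes and CDK inhibitors, 18 were higher in M1 medium and 5 lower, beside 33.8% and 33.7% of all genes. Their median was 0.35. CDKN1A, the inhibitor p21 (chromosome 6, 36676463 to 36687332), was at 571, 585 and 594 CPM against 224, 209 and 226 CPM, 2.65-fold. CDKN2B, the inhibitor p15, was at 30.0, 30.9 and 31.3 CPM against 1.28, 0.866 and 1.19 CPM, 27.7-fold. CDKN2C (p18) and CDKN2D (p19) went the other way, the first at 8.04, 5.61 and 7.34 CPM against 48.7, 44.7 and 43.8 CPM. The DNA damage genes GADD45A, SESN1 and DDB2 were also lower, while the pro-apoptotic BBC3 (1.66) and ZMAT3 (1.28) were higher. Among apoptosis regulators 20 of 27 tested were higher and 1, BAD (-0.37), was lower, beside 33.8% and 33.7% of all genes. CASP10, an initiator caspase, stood at 62.5 ± 1.32 against 3.74 ± 0.214 CPM, the pro-apoptotic BMF 2.23 higher on the log2 scale and the survival factor gene MCL1 1.00 higher. CASP1, the caspase of inflammasomes, was at 1.17 ± 0.400 CPM against 0 counts, at least 11.4-fold higher.

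Genes of cell identity split. Of 20 luminal and lineage genes tested, 10 were higher in M1 medium and 8 lower, beside 33.8% and 33.7% of all genes. ELF3, an epithelial transcription factor, was at 455 ± 8.02 against 33.0 ± 1.84 CPM, CD24 29.3-fold higher and CLDN4 2.50-fold. HOXB13, the prostate homeobox factor (259 ± 16.7 against 533 ± 6.70 CPM), GATA2 (-0.68) and KRT19 (-2.92) were lower. Of 13 basal genes tested, 8 were higher, beside 33.8% of all genes. They were led by the laminin chain gene LAMB3 (131, 131 and 150 CPM against 0.718, 0.738 and 0.554 CPM). The basal keratin gene KRT14 moved the opposite way, from 2.89 ± 0.374 in M2 to 0.0553 ± 0.0502 CPM in M1 medium, and the integrin gene ITGA6 (-0.89) and the Notch ligand gene JAG1 (-0.39) were lower as well. Basal KRT5 and TP63 did not pass the filter. KRT14 stood with DSG1, PKP1 and HRNR, genes of desmosomes and cornified epithelium, among the 10 largest falls, which also held the acetylcholine receptor gene CHRNA2 (79.3-fold lower, from 13.0 to 17.4 CPM in M2 medium to 0.136 to 0.252 CPM in M1), GHRHR, TARP, the peptide hormone gene APLN (22.8-fold), KLK2 and KLK3.

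Of 17 stemness-associated genes tested, 8 were higher in M1 medium and 7 lower, in balance like the 33.8% and 33.7% of all genes. SOX9, a progenitor factor (chromosome 17, 72121020 to 72126416), was at 70.9, 69.4 and 76.5 CPM against 4.72, 4.14 and 3.52 CPM, 17.4-fold, and KLF4 was 1.97 higher on the log2 scale. CD44, named in the series title, was at 4.60, 4.86 and 4.05 CPM against 0.406, 0.192 and 0.277 CPM. SOX2, also in the title, had 5 counts in the M1 and 1 in the M2 libraries, too few for the filter (edgeR adjusted p = 0.304 without it), and NANOG had 0 in both, which allows up to 0.0937 to 0.119 CPM per library. TERT (-2.38), LGR4 (-1.20), EZH2 (-1.12) and MYC (-0.61) were lower. The study's title names 3 of these genes, so the list is not independent evidence of a direction.

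Of 25 matrix and mesenchymal genes tested, 17 stood higher in M1 medium and 5 lower, beside 33.8% and 33.7% of all genes. FN1, fibronectin, was at 5327, 5046 and 5410 CPM against 385, 443 and 512 CPM, 11.8-fold. MMP7, a matrix protease, was at 343, 377 and 313 CPM against 5.50, 4.81 and 2.77 CPM, and ITGAV, the integrin alpha V chain, at 739 ± 47.2 against 107 ± 2.13 CPM. The transcription factor genes SNAI1 (-0.83) and TWIST1 (-1.65), SPARC (-2.16), LOX (-0.83) and COL4A2 (-0.84) were lower, and CDH1 was higher by 0.66. The LOX call was lost without M1 replicate 1 (edgeR adjusted p = 0.0643). Among TGF-beta and BMP targets 11 of 18 tested were higher and 3 lower, beside 33.8% and 33.7% of all genes. The BMP targets ID1, ID2, ID3 and BAMBI differed by 3.97, 1.99, 2.42 and 2.32, while CCN1 (-0.70), PMEPA1 (-0.89) and SKI (-0.20) were lower in M1 medium. Of 8 neuroendocrine genes tested, 2 were higher (TUBB3 and NTS) and 4 lower, namely ENO2 (-0.22), SCG5 (-1.71), PEG10 (-4.12) and the Notch ligand gene DLL3 (-0.96), 6 of 8 beside the 67.5% of all genes called. With 1 library left out, 2 to 3 were lower. Of these, ENO2 was lost without M1 replicate 1 or 2 or M2 replicate 1 or 3 (edgeR adjusted p from 0.0509 to 0.0923), and SCG5 without M1 replicate 3 or M2 replicate 2 or 3 (edgeR adjusted p from 0.0649 to 0.0813). The NTS call was lost without M1 replicate 1 or 3 or M2 replicate 1 or 2 (edgeR adjusted p from 0.0789 to 0.119). The SKI call was lost without M1 replicate 1 or 2 or M2 replicate 3 (edgeR adjusted p from 0.0622 to 0.224), and SKI stood at 0.05 with the DMSO-treated M1 libraries.

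Metabolic lists gave smaller differences, and in 1 of them both media moved. Of 32 hypoxia and glycolysis genes, all tested, 20 were lower in M1 than in M2 medium and 10 higher, beside 33.7% and 33.8% of all genes. Their median was -0.28. PDK1, which restrains pyruvate oxidation, stood at 38 ± 4.26 against 117 ± 13.6 CPM and the glucose transporter gene SLC2A1 at 60.3 ± 1.96 against 118 ± 8.74 CPM. EGLN3, an oxygen-sensing hydroxylase, was 6.88-fold higher in M1 medium (131, 155 and 140 CPM against 22.0, 19.8 and 20.2 CPM) and VEGFA, the angiogenic factor, 1.85-fold. Against control the list's median was -0.35 in M1 and -0.19 in M2 medium, where 13 of 32 genes were lower and none higher, beside 3.37% of all genes lower. It was 5 with control replicate 1 left out and 7 with M2 replicate 2 left out. Against M0 medium 12 of the 32 were lower in M2 medium, beside 0.105% of all genes, and the list's median was -0.32. That count was 0 without M2 replicate 2 or M2 replicate 3, 3 without M0 replicate 2 and 2 without M0 replicate 3. The 12 included LDHA, lactate dehydrogenase (-0.37), the glycolytic kinase gene PGK1 (-0.42) and BNIP3, a mitophagy receptor (-0.48), chosen after their values were seen. For HK2, a hexokinase, and KDM3A, a histone demethylase, M1 medium lay at the control level (-0.02 and 0.01) and M2 medium below it (-0.40 and -0.41, edgeR adjusted p = 0.00659 and 0.00518). Against M0 medium KDM3A was lower (-0.42, edgeR adjusted p = 0.0364) and HK2 was not called (-0.23, edgeR adjusted p = 0.630).

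Cholesterol and fatty acid synthesis was lower in M1 medium for 21 of 29 tested genes and higher for 4, beside 33.7% and 33.8% of all genes. EBP, a sterol isomerase, was at 54.5, 54.3 and 54.4 CPM against 150, 137 and 131 CPM, the only member past 2-fold, and the fatty acid synthase gene FASN at 1152 ± 148 against 1958 ± 223 CPM. HSD17B7 (0.62), LSS (0.47) and HMGCS1 (0.19) were among those higher, the last lost without M1 replicate 1 or 3 or M2 replicate 1 (edgeR adjusted p from 0.0509 to 0.0714). In the unfolded protein and ATF4 list 13 of 25 were higher and 8 lower, beside 33.8% and 33.7% of all genes. The stress factor genes ATF3 (1.5) and PPP1R15A (1.83) and the chaperone gene DNAJB9 (1.14) were higher, and the amino acid synthesis genes PHGDH (-0.93), ASNS (-0.49), PSAT1 (-0.38) and SHMT2 (-0.47) lower.

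Iron and oxidant genes included some of the most abundant differences. Of 24 tested, 13 were higher in M1 medium and 7 lower, beside 33.8% and 33.7% of all genes. FTH1, the ferritin heavy chain, was at 4054, 4305 and 4241 CPM against 659, 626 and 613 CPM, 6.64-fold, and SOD2, mitochondrial superoxide dismutase, at 2252, 2383 and 2227 CPM against 193, 189 and 182 CPM, 12.2-fold. HMOX1, haem oxygenase 1, was 7.30-fold higher. The metallothionein genes MT1X (-1.24), MT1G (-0.73) and MT2A (-0.37), near-identical copies whose reads may be shared, were lower, as was SOD3 (-1.16). The MT2A call was lost with the length trend removed (edgeR adjusted p = 0.0638) and with DMSO-treated M1 libraries (edgeR adjusted p = 0.723).

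**Figure D4:**
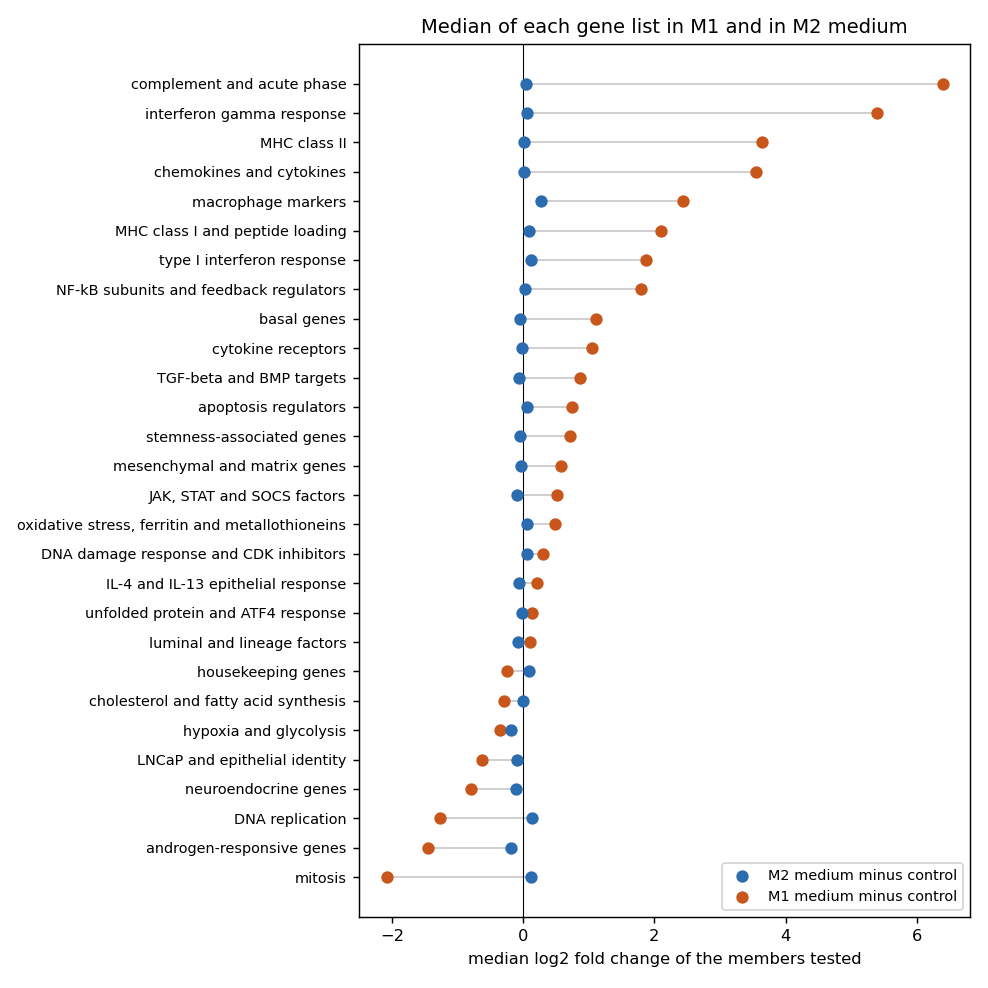
Median log2 fold change against control (horizontal) of the tested members of each gene list in M2 medium (blue) and M1 medium (orange); both use the same 3 control libraries. The M2 medians lie between -0.19 and 0.27, and the M1 medians between -2.08 and 6.39.

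Of 15 housekeeping genes 11 were called, beside 67.5% of all genes, and none differed by 2-fold. Of these, 3 were higher in M1 medium (among them TFRC and YWHAZ, by 0.66 and 0.54) and 8 lower, among them HPRT1 (-0.98), GUSB (-0.77) and RPLP0 (-0.71). GAPDH stood at 1338 ± 39.3 against 1500 ± 58.4 CPM (-0.16, edgeR adjusted p = 0.00388), a call lost when the length trend was removed and with DMSO-treated M1 libraries.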

How the data were processed

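The deposited table holds expected counts for each RefSeq transcript, which the authors did not normalise, in steps of 0.5. The submitters' processing notes name hg38, Trimmomatic, BWA 0.7.17 and HOMER 4.10. Neither their roles nor the treatment of multiply matching reads or of strand is stated, so overlapping and antisense genes (TARP among them) cannot be told apart. Of 70507 transcripts, 69830 were named from the GRCh38.p14 RefSeq table and 343 from GENCODE 29, and 334 without a name (0.0883 to 0.109% of counts) stayed out. The transcript with the most counts stood for each of 28100 genes, rounded to whole numbers, so a switch of transcript can appear as a change in level.

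For the 17073 genes that filterByExpr kept, edgeR 4.0.16 (R 4.3.3) gave quasi-likelihood tests after TMM scaling, from all 18 libraries with 1 mean per group and Benjamini-Hochberg adjustment over all genes. CPM are TMM-scaled, with the SD over 3 libraries unless marked SE, which was taken from the fold change and its F statistic. The filter used all 6 groups, so genes silent elsewhere could pass through M1 medium alone, which favours higher calls in list counts and medians. Folds against 0 counts use a floor of 3 counts per library. Floors cover counting error only. Replicates differed by more than sampling noise (chi-square per gene 4.79 to 14.8).

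The comparison and the 28 gene lists were chosen with earlier results of these data known. Named genes are those of the series title, the 10 largest differences per direction (protein-coding, called, 1 CPM, no overlap), the called members of each list with the largest fold or level, members called against their list's majority, and the most abundant members where none was called. IRF1, CIITA, IL4R, IL13RA1, STAT6 and the genes marked in the text lie outside this rule and were chosen after their values were seen. Alternatives were DESeq2 1.42.0, its scaling, other filters, the M1 and M2 libraries alone, a replicate block, the longest transcript, removal of the length trend, each library left out, and M1 medium with DMSO. Results for some list members are not reported here, though the list counts include them.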

Additional observations from a re-analysis of the deposited data

How the results depend on the processing

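Over 15 other settings, 6 of which leave out a library, the counts of genes higher and lower in M1 than in M2 medium, and of those past 2-fold, stayed within 1.5 times the reported counts, and the median of all genes moved by at most 0.01 on the log2 scale. Of 840 list counts recomputed, 813 stayed within that margin. Cytokine receptors lower numbered 1 with DESeq2 or with the length trend removed. With that trend removed, 5 basal genes and 4 oxidative stress genes were lower, and 2 apoptosis regulators. With the replicate block, 2 apoptosis regulators were lower. With DMSO-treated M1 libraries, 2 complement genes, 0 apoptosis regulators and 4 oxidative stress genes were lower, 1 neuroendocrine gene was higher, and the log2 fold change of SKI reversed to 0.0489. The NTS, ENO2, HMGCS1 and BAD calls were also lost there (edgeR adjusted p = 0.349, 0.312, 0.2675 and 0.0714), and CXCL16 was called higher (edgeR adjusted p = 0.0168). Removing the length trend lost the IL1RAP, HLA-DMB and CCNE1 calls (edgeR adjusted p = 0.0908, 0.0665 and 0.06955). Without the filter, IL1RAP and UGT2B15 were lost (edgeR adjusted p = 0.0557 and 0.0620). A minimum of 1 CPM in 3 libraries left 5 basal genes higher.

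Leaving out 1 library gave 0 to 1 chemokines, 1 to 2 receptors, 0 to 1 complement genes, 2 to 3 neuroendocrine genes, 1 to 2 apoptosis regulators and 4 to 7 oxidative stress genes lower, and 1 to 2 neuroendocrine genes higher. For M2 medium against control, chosen after seeing the data, it gave 86 to 1559 genes higher and 63 to 1087 lower, 9 to 17 androgen-responsive genes and 5 to 12 hypoxia genes lower, and 0 to 11 replication and 2 to 11 mitosis genes higher. For M2 against M0 medium, added likewise, it gave 0 to 1 genes higher, 0 to 35 lower and 0 to 15 hypoxia genes lower. The cause of these shifts was not tested.

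The replicate numbers did not pair the libraries: same-numbered M1 and M2 libraries correlated at -0.03, 0.03 and 0.11 in their deviations, and M2 replicate 1 correlated best with M1 replicate 2 (0.12). The replicate block gave 5770 genes higher and 5694 lower. Depth limits genes near the floor of 3 counts, which was 0.0937 to 0.119 CPM in these libraries.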

Other observations

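A few genes that departed from the control in M2 medium are given here. In M1 medium TGM2, VEGFA and GDF15 were not called against control or moved in the other direction. OAS1 and UGT2B17 lay above the control mean in both media. All of them were chosen after their values were seen, and both comparisons share the control libraries. M0 medium is given beside each. TGM2, a transglutaminase often used as a marker of interleukin 4 exposure, was at 0.250, 0.577 and 0.277 CPM in M2 medium, 0.947 ± 0.205 CPM in control and 1.51, 1.19 and 1.37 CPM in M1 medium. It stood -1.34 from control in M2 medium (log2, edgeR adjusted p = 0.0151) and 0.51 in M1 medium (edgeR adjusted p = 0.087), with M0 medium at 0.674 ± 0.126 CPM and no call between M2 and M0 medium (edgeR adjusted p = 0.790). VEGFA was lower than control in M2 medium (-0.32, edgeR adjusted p = 0.00375) and stood 0.57 above it in M1 medium. GDF15 stood at -0.29 in M2 medium (edgeR adjusted p = 0.0187) and 0.42 in M1 medium. Both were lower in M2 than in M0 medium (VEGFA -0.30, edgeR adjusted p = 0.0364, GDF15 -0.49, edgeR adjusted p = 0.00679), among the 18 genes whose count is 0 without M2 replicate 2 or M2 replicate 3.

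OAS1, an interferon-induced synthetase, was at 2.63 ± 0.37 CPM in M2 medium and 1.24 ± 0.144 CPM in control, against 14.4 ± 0.569 CPM in M1 and 2.21 ± 0.429 CPM in M0 medium. Its difference between M2 medium and control was 1.07 on the log2 scale (edgeR adjusted p = 0.00114). UGT2B17, an androgen-inactivating enzyme with near-identical relatives, was in M2 medium at 27.0, 26.2 and 22.7 CPM, against 18.5, 20.4 and 18 CPM in M1 medium and means of 15.1 CPM in control and 22.6 CPM in M0 medium, with no call between M2 and M0 medium (edgeR adjusted p = 0.924).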
